A study of Mus musculus with 6 samples.

Results

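Kinesins are motor proteins that walk along microtubules, and their genes carry symbols beginning with Kif. The 41 genes described here are all genes of the deposited table, out of 22162, whose symbol is Kif with a number and an optional letter a, b or c, or Kif with such a letter and a number. The family was taken by symbol, but it was selected on the measured rise of Kif1a in the contrast below, which was already known to be among the largest of all genes. The change of Kif1a is therefore given as a description, and no count of kinesins is used as support for it. By role, 9 genes were taken as mitotic kinesins and 17 as transport kinesins, and the remaining 15 are called other kinesins.

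Poly(A) RNA of mouse skin fibroblasts (MSFs) was sequenced in 6 libraries, 3 of each group, and the question was how gene expression differs between senescent and non-senescent stromal cells. The MSFs were grown from enzymatically digested dorsal skin of FASST mice on the FVB/N strain and were kept at 3% oxygen; the study describes its MSF line as coming from a single female, whose age is not given in the sources used here. All libraries, controls included, carry the same transgenes, namely a tamoxifen-activated Cre recombinase (Cre-ERT2) driven by the pro-alpha 2(I) collagen promoter, which is active in fibroblasts, and a ROSA26 cassette in which Cre removes a stop and switches on the cell cycle inhibitor p27Kip1 together with GFP. The TAM libraries came from cells given 10 µM tamoxifen for 48 h and are labelled senescent, whereas the EtOH libraries came from cells given the ethanol vehicle and are labelled non-senescent. Nothing in the sources used here says that the replicates were separate cultures or animals, so p-values measure the spread between these libraries, which may be technical, and tamoxifen without the transgenes was not among the groups. In bulk RNA, a change in the share of cells that express a gene and a change in RNA per cell cannot be told apart.

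Most kinesins couple the breakdown of ATP to steps toward the plus end of a microtubule. The mitotic kinesins build the spindle, move chromosomes and complete cytokinesis, and in most cell types their transcripts accumulate in G2 and mitosis. Transport kinesins carry vesicles, organelles, RNA and ciliary components between mitoses, and several of them are best known from neurons, where Kif1a moves precursors of synaptic vesicles and dense-core vesicles along the axon.

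Library sums were between 14952367 and 17314953 normalized counts, the unit of the table, and 16.2 normalized counts were taken as 1 count per 1000000 (c.p.m.), from the mean of the 6 sums. Cdkn1b, which encodes p27Kip1, had 1427, 3074 and 1853 normalized counts in EtOH replicates 1, 2 and 3, and 1699, 1520 and 1630 in the TAM replicates. The groups overlapped, with a log2 difference of −0.32 (limma adjusted p = 0.677), and whether reads of the transgene are counted on this gene is not given in the sources used here. The 10 fibroblast markers were detected in every library, the lowest value being that of Lum in TAM replicate 2, at 157.5 normalized counts. Their summed levels, mostly from Col1a1, Col1a2, Col3a1 and Fn1, were 1962055 to 2082633 normalized counts in EtOH libraries and 1278754 to 1594317 in TAM libraries.

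Of the 41 kinesins, 3 were listed at 0 in all 6 libraries, namely Kif12, Kif2b and Kif4b. Another 3 stayed below the filter, which asked for 1 c.p.m. in 3 libraries or more. These were the minus-end motor Kifc1, the ciliary kinesin Kif19a and Kif17, a motor of dendrites and cilia. In order of level, the third of their 6 libraries had 9.69, 2.65 and 9.77 normalized counts, while the lowest kinesin to pass, Kif18b, had 21.98. The other 35 were tested among 11877 genes, and they comprised all 9 mitotic kinesins, 16 transport kinesins and 10 other kinesins. A gene that passed the filter only through its higher group had to differ, so counts over these 35 genes do not stand for all members.

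Transport kinesins supplied most of the kinesin transcripts. Per kilobase of exon, the highest EtOH means were those of Kif5b, the ubiquitous kinesin-1 heavy chain, at 437 ± 125 normalized counts (SD, n = 3), of Kif1c at 363 ± 90.02 and of Kif1b at 239 ± 49.7. These 3 genes held the same order in the TAM libraries, at 580 ± 82.55, 524 ± 40.1 and 278 ± 56.3, and the spreads of neighbouring genes in the order overlapped in the EtOH libraries. Kif20a was the most abundant mitotic kinesin, at 70.7 ± 17.6 per kilobase in EtOH libraries, and the other 8 lay between 4.53 and 24.4. Kif1a stood at rank 34 of 41 in the EtOH libraries, with 3.74 ± 4.68 normalized counts per kilobase, and at rank 13 in the TAM libraries, with 85.1 ± 80.7. Kif26b moved from rank 19 to rank 4, from 23.4 ± 12.3 to 257 ± 99.2 per kilobase.

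**Figure D1:**
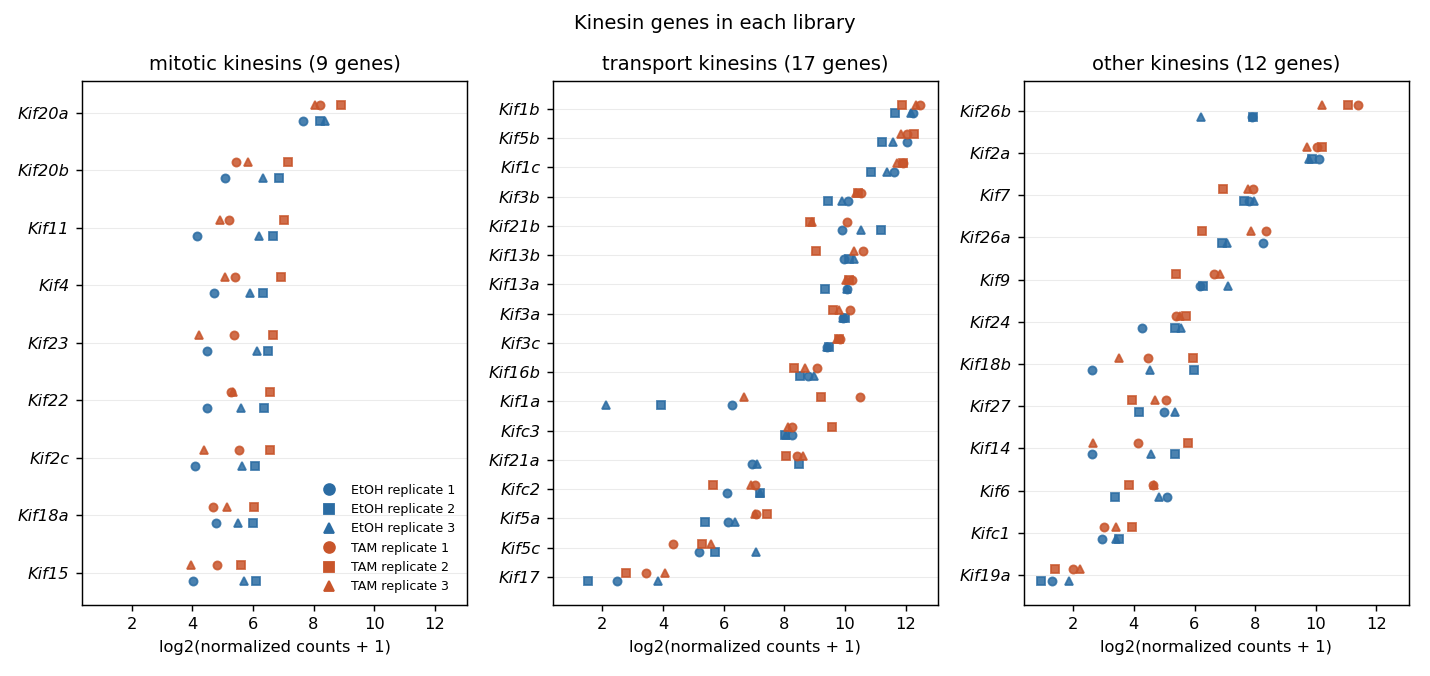
Levels of the 38 kinesins with any value above 0, as log2(normalized counts + 1) on the horizontal axis, in 3 panels by role, with EtOH libraries in blue and TAM libraries in orange and the marker shape giving the replicate number. Kif1a and Kif26b are the genes whose orange markers stand farthest to the right of the blue ones, whereas blue and orange markers of each of the 9 mitotic kinesins overlap.

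Kif1a (Ensembl gene ENSMUSG00000014602) lies on mm9 chr1:94912033-94965095. It had 75.5, 14.2 and 3.39 normalized counts in EtOH replicates 1, 2 and 3. The TAM replicates had 1427, 597 and 99.7 normalized counts. Every TAM library was above every EtOH library, and in both groups replicate 1 was highest and replicate 3 lowest. Within a group the libraries differed by 22.3-fold in EtOH and 14.3-fold in TAM, so the lowest TAM value was close to the highest EtOH value. Compared within the same replicate number, the ratio of TAM to EtOH was 18.9, 41.9 and 29.4. The EtOH value of replicate 3, 3.39, is only a few times the smallest value above 0 in that library, 0.74 normalized counts, so it stands for few reads. The fitted log2 difference was 4.68 with a standard error of 1.25, which fell to 0.30 when the replicate number entered the model as a block. Kif1a accounted for 0.141% of the per-kilobase kinesin total in EtOH libraries and 2.48% in TAM libraries. No exon of Kif1a overlaps another annotated gene, and no stretch of at least 100 bases of its transcript matched elsewhere in the mm9 genome at 95% identity.

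The locus deposited for Kif1a is shorter than its mm9 annotation. On the minus strand its locus ends at 94965095, whereas the mm9 annotation extends the gene to 94998442. RefSeq lists a pair of start sites on GRCm38.p6, a later build than that of the counts. The 100 bases before each are shown, but whether either start lies within the counted locus was not tested. Capitals mark TTTGAA, the core of the cell cycle genes homology region (CHR) that the DREAM and MuvB complexes bind in cell cycle promoters, and CCAAT, the box bound by NF-Y, on either strand (TTCAAA and ATTGG on the other). Neither motif was found before the outer start, and 1 CHR core was found before the inner start, beginning at position −44. The inner stretch ends in a pyrimidine-rich run and cag, which resembles the end of an intron. Whether transcription starts there was not tested, so this match may not lie in a promoter.
Kif1a start 2 (outer), chr1:93101875-93101974, minus strand: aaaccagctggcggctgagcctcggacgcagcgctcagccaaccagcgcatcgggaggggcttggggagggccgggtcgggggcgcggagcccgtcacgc
Kif1a start 1 (inner), chr1:93082481-93082580, minus strand: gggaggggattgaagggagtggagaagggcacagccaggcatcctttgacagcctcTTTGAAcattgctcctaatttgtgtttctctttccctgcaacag

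The closest paralogs of Kif1a, which share its kinesin-3 motor, had much smaller differences. Kif1b, a motor for mitochondria and vesicles, had 4823, 3213 and 4610 normalized counts in the EtOH replicates and 5717, 3789 and 5159 in the TAM replicates. The groups overlapped, although each TAM library was above the EtOH library of the same number, and the log2 difference was 0.22 (SE 0.24). Kif1c, which carries dense-core vesicles and integrins, had 3113, 1866 and 2696 normalized counts in EtOH and 3895, 3813 and 3369 in TAM. All TAM libraries of Kif1c exceeded all EtOH libraries, by a log2 difference of 0.56 (SE 0.22, limma adjusted p = 0.350). About 9.25% of the Kif1c transcript matched another place in the genome.

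Among the other transport kinesins, the largest differences after Kif1a were those of Kif21b, Kif5a, Kif5c and Kif21a, and they went both ways. Kif21b, a kinesin-4 motor that restrains microtubule growth in neurons and lymphocytes, had 948, 2312 and 1473 normalized counts in EtOH and 1061, 458 and 476 in TAM. Replicate 1 was similar in both groups, and the other TAM replicates were below every EtOH library. The log2 difference was −1.27 (SE 0.43, limma adjusted p = 0.277), and by replicate number it was 0.16, −2.33 and −1.63. When the pair numbered 1 was left out of the model with the block, the difference was −1.98 and passed the threshold (limma adjusted p = 0.0421). That fit was added after seeing the data, and the pair left out was the only one in the other direction. The call is therefore not used as support. Kif21a, a relative of Kif21b in the kinesin-4 family, had 120, 353 and 135 normalized counts in EtOH and 343, 266 and 392 in TAM. Kif21a was higher in TAM in the pairs numbered 1 and 3 and lower in the pair numbered 2, with a log2 difference of 0.87 (SE 0.42, limma adjusted p = 0.433). Without the pair numbered 2 and with the block, its difference of 1.51 passed the threshold (limma adjusted p = 0.0105). Here too the fit was added after seeing the data and left out the only pair in the other direction, so the call is not used as support.

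The kinesin-1 heavy chains differed among themselves. Kif5a, a largely neuronal form, had 70.2, 41.0 and 81.4 normalized counts in EtOH and 132, 170 and 130 in TAM. Its groups did not overlap, with a log2 difference of 1.198 (SE 0.32, limma adjusted p = 0.203). Kif5c, likewise enriched in neurons, had 35.1, 51.5 and 133 normalized counts in EtOH and 19.0, 37.7 and 46.8 in TAM. Kif5c was the 1 tested kinesin that was lower in TAM in all 3 pairs, yet its groups overlapped and its log2 difference was −0.92 (SE 0.57, limma adjusted p = 0.550). Kif5b had a log2 difference of 0.44 (SE 0.25), with overlapping groups, and 43.0% of its transcript matched other places in the genome, so its count is uncertain.

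Of the heterotrimeric kinesin-2 subunits, which carry intraflagellar transport trains and other cargo, Kif3b and Kif3c are named because their groups did not overlap, a choice made after their values were seen. Kif3b had 1091, 696 and 960 normalized counts in EtOH and 1490, 1377 and 1304 in TAM. Kif3c had 684, 713 and 673 normalized counts in EtOH and 910, 896 and 852 in TAM, the narrowest spread within groups of any kinesin whose groups were apart. The log2 differences were 0.62 (SE 0.21) for Kif3b and 0.36 (SE 0.15) for Kif3c, neither past the threshold. For Kif3c, 34.8% of the transcript matched elsewhere and 17.2% of exon bases overlap a gene on the other strand, and how the authors counted strands is not given in the sources used here. The remaining 7 tested transport kinesins, which were Kif3a, Kif5b, the endosomal motors Kif13a, Kif13b and Kif16b, and the minus-end motors Kifc2 and Kifc3, all had overlapping groups. Their log2 differences ran from −0.31 to 0.54, at levels between 49.4 and 4917 normalized counts.

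The largest difference outside the transport kinesins was that of Kif26b (ENSMUSG00000026494, mm9 chr1:180459256-180862861). Kif26b encodes an unusual kinesin that binds microtubules without being a conventional motor and acts in Wnt5a-Ror signalling, cell adhesion and kidney development. It had 236, 241 and 72.5 normalized counts in EtOH and 2707, 2141 and 1173 in TAM. The lowest TAM library was above the highest EtOH library by several-fold, and replicate 3 was the lowest of each group. The ratio of TAM to EtOH was 11.5, 8.87 and 16.2 by replicate number and 10.955 for the group means. The log2 difference was 3.55 (SE 0.52, limma adjusted p = 0.0620). Entering the replicate number as a block gave a standard error of 0.22 and an adjusted p = 0.0147. Its share of the per-kilobase kinesin total was 0.886% in EtOH libraries and 7.48% in TAM libraries. Of its exon bases, 11.6% overlap a transcript on the other strand, and no part of the transcript matched elsewhere.

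**Figure D2:**
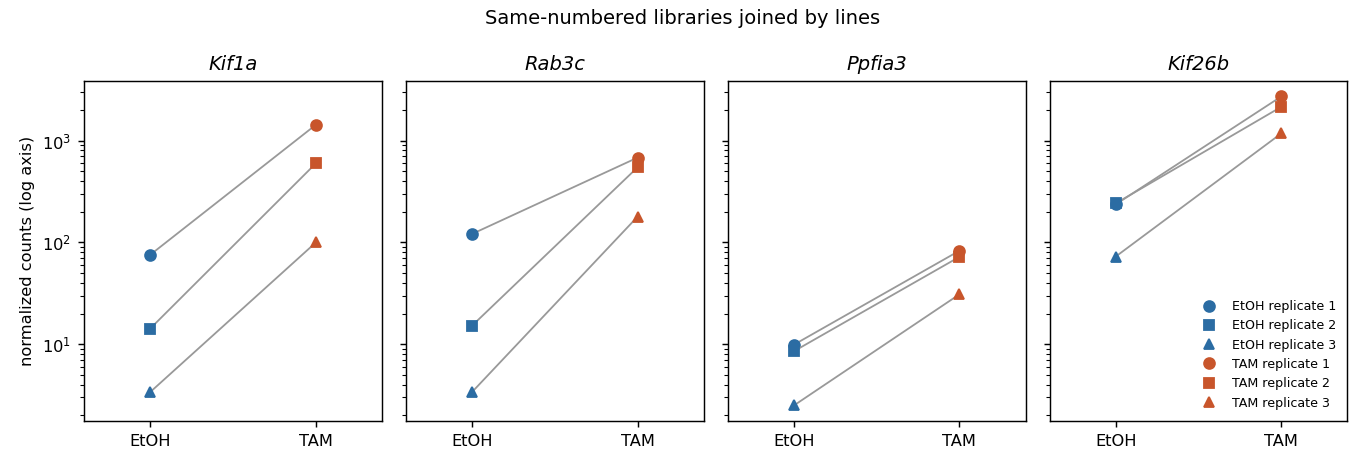
Normalized counts on a log axis for Kif1a, Rab3c, Ppfia3 and Kif26b, with 1 line for each replicate number joining its EtOH library (blue) to its TAM library (orange). All 12 lines rise from EtOH to TAM, and replicate 3 is the lowest library of its group in each panel. Ppfia3 passed the filter only through its TAM libraries, so its lines had to rise. Each gene shown was called with the replicate block, which favours genes ordered alike by replicate number in both groups.

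Counted over the family, 22 of the 35 tested kinesins had a positive log2 difference and 13 a negative one. Without the block, 0 kinesins passed an adjusted p of 0.05 in limma in either direction, where 0.168% of all tested genes passed as higher in TAM and 0.0758% as lower. At an unadjusted p under 0.05, 6 kinesins were higher and 1 was lower, against 6.67% and 6.70% of all tested genes. With the replicate block, 2 kinesins were called higher, Kif1a and Kif26b, and 0 lower, where 1.00% of all tested genes were called higher and 0.615% lower; the unadjusted counts were 5 and 2, against 8.64% and 8.32%. The groups did not overlap for 6 kinesins higher in TAM, which were Kif1a, Kif1c, Kif3b, Kif3c, Kif5a and Kif26b, and for 0 lower, while 9.19% and 11.4% of all tested genes had groups apart in these directions. Since the family was chosen from this contrast, nothing is read from these counts.

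**Figure D3:**
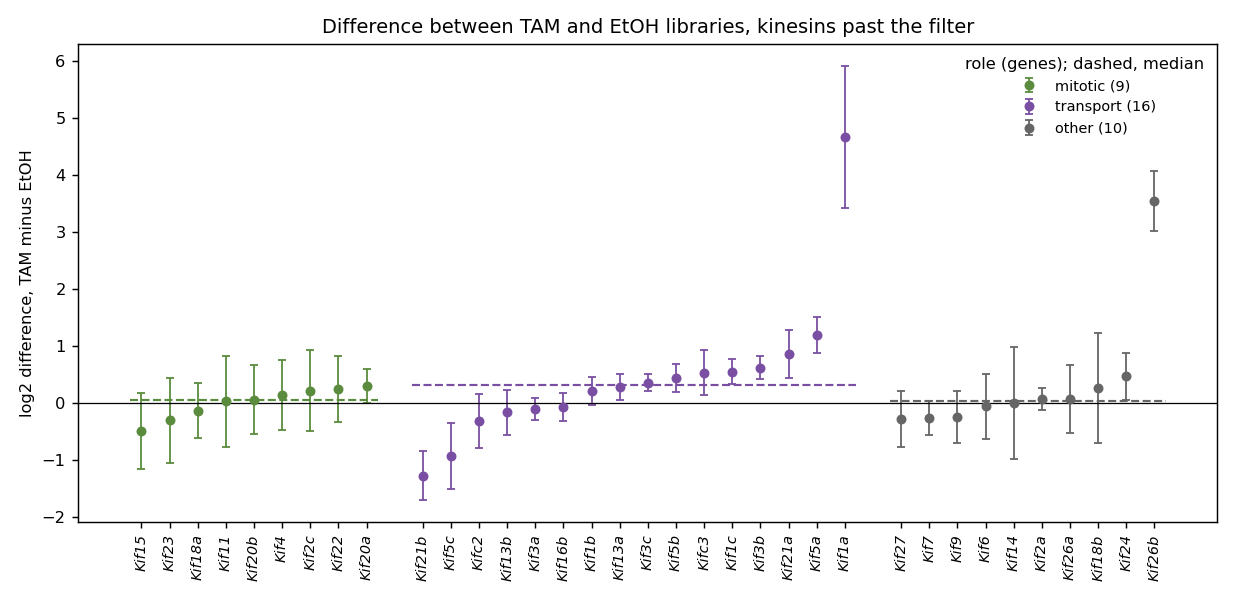
Log2 difference between TAM and EtOH for the 35 tested kinesins, ordered within each role, with bars of 1 standard error from limma without the block and a dashed line at each role's median. Kif1a at 4.68 and Kif26b at 3.55 stand apart from the rest, and the 9 mitotic kinesins lie between −0.48 and 0.30.

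The comparison of mitotic with transport kinesins is the one the family was set up for. The median log2 difference was 0.06 over the 9 mitotic kinesins, 0.33 over the 16 tested transport kinesins and −0.03 over all 11877 tested genes. The difference of these medians, mitotic minus transport, was −0.26. Leaving out 1 library at a time moved the mitotic median between −0.45 and 0.45 and the difference of the medians between −0.83 and 0.30, so neither sign holds for all libraries. The transport median stayed positive, from 0.15 to 0.38. Standard errors were also larger for the mitotic genes, with a median of 0.61 against 0.28 for the transport genes.

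Behind these medians, the mitotic kinesins varied between libraries of the same group far more than between groups. Kif11, the motor that pushes spindle poles apart, had 16.9, 101 and 72.5 normalized counts in EtOH and 36.1, 129 and 29.1 in TAM. Kif15, which helps to hold the poles apart, had 15.3, 67.7 and 51.3 in EtOH and 27.2, 47.7 and 14.7 in TAM. In both genes EtOH replicate 1 was the lowest EtOH library and TAM replicate 2 the highest TAM library, and the groups overlapped throughout. Their log2 differences were 0.04 (SE 0.80) and −0.48 (SE 0.67).

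Those kinesins that act on chromosomes and microtubule ends varied in the same way. Kif2c, which takes microtubules apart at kinetochores, had 16.1, 65.8 and 49.5 normalized counts in EtOH and 45.8, 93.0 and 19.7 in TAM. Kif18a, which damps chromosome movements at metaphase, had 26.4, 63.0 and 44.2 in EtOH and 25.01, 64.5 and 34.3 in TAM. In both genes the groups overlapped, with log2 differences of 0.22 (SE 0.71) and −0.13 (SE 0.49). Kif4, a chromokinesin that also organizes the central spindle, had 25.5, 79.1 and 59.2 in EtOH and 41.3, 121 and 32.7 in TAM. Kif22, a second chromokinesin, had 21.6, 82.0 and 47.7 in EtOH and 37.6, 94.7 and 40.0 in TAM. Again replicate 2 was the highest library of each group, and the log2 differences were 0.15 (SE 0.61) for Kif4 and 0.24 (SE 0.58) for Kif22; 15.1% of the Kif4 exon bases overlap a gene on the other strand.

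The kinesins of cytokinesis closed the list. Kif20a, which brings the chromosomal passenger complex to the central spindle, had 199, 296 and 331 normalized counts in EtOH and 296, 475 and 261 in TAM. Kif20b, needed for the last step of abscission, had 32.5, 115 and 79.6 in EtOH and 42.8, 143 and 55.8 in TAM. Kif23, the motor subunit of centralspindlin, had 21.6, 89.6 and 69.9 in EtOH and 40.6, 99.7 and 17.6 in TAM. None of the 3 separated the groups, with log2 differences of 0.30 (SE 0.30), 0.06 (SE 0.60) and −0.30 (SE 0.75). Kif20a varied least among libraries, but 32.3% of its exon bases overlap Cdc23 on the other strand.

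By replicate number the mitotic kinesins moved together, and in opposite directions in different pairs. In the pair numbered 1, 8 of the 9 were higher in TAM, with a median log2 difference of 0.77, and in the pair numbered 2 again 8 of 9, with a median of 0.31. In the pair numbered 3, 0 of 9 were higher, and the median was −0.84. The summed level of the 9 genes was 375, 959 and 805 normalized counts in EtOH replicates 1, 2 and 3 and 593, 1268 and 505 in the TAM replicates. EtOH replicate 1 was the lowest EtOH library for 9 of 9 genes, TAM replicate 2 the highest TAM library for 9 of 9, and TAM replicate 3 the lowest TAM library for 6 of 9. Across the 6 libraries the 36 pairs of mitotic kinesins had a median Pearson r of 0.90, from 0.68 to 0.98, whereas the 120 pairs of transport kinesins had a median of 0.07, from −0.90 to 0.99. These correlations share the same 6 libraries and their depth and are given as a description only.

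**Figure D4:**
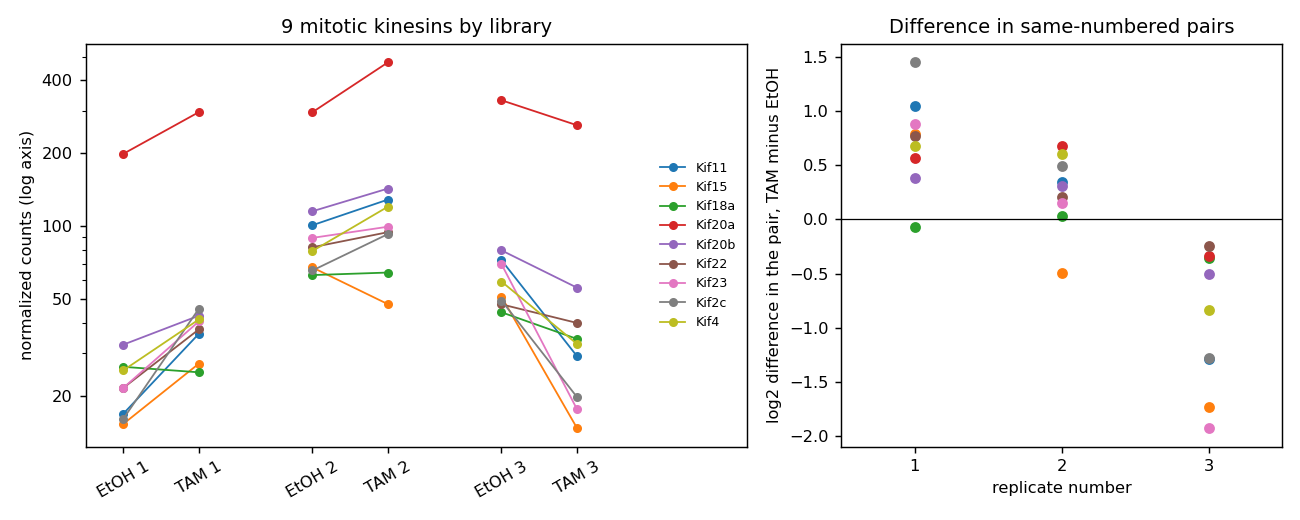
Left, normalized counts (log axis) of the 9 mitotic kinesins in each library, with lines joining the EtOH and TAM libraries of the same replicate number; right, the log2 difference between TAM and EtOH in each pair, 1 point for each gene. Most points lie above 0 for replicates 1 and 2, and all 9 lie below 0 for replicate 3.

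Genes that work with these kinesins in mitosis were followed as a list of 35, all of them tested. Without or with the block 0 were called in either direction by limma, and 1 of the 35 had an unadjusted p under 0.05 as higher (6.67% of all tested genes did) and 0 as lower in the model without it. The median log2 difference of 0.07 was close to that of the mitotic kinesins, with 22 genes positive and 13 negative. The kinetochore kinesin Cenpe, whose symbol falls outside the Kif pattern, had 59.1, 174 and 136 normalized counts in EtOH and 117, 209 and 80.3 in TAM. Mki67, the proliferation antigen Ki-67, had 106, 713 and 403 in EtOH and 198, 585 and 77.35 in TAM, and Top2a, which untangles DNA, had 88.8, 661 and 274 in EtOH and 149, 474 and 79.5 in TAM. Within each group all 3 had the order of the summed mitotic kinesins, with EtOH replicate 1 and TAM replicate 3 lowest, whereas across the groups the order of Mki67 and Top2a differed from that of the sum. Summed over the list, levels ran from 1926 to 6183 normalized counts in EtOH libraries and from 2017 to 6973 in TAM libraries, and each mitotic kinesin had an r between 0.81 and 0.97 with that sum over the 6 libraries. Of 18 regulators of mitotic genes, among them Foxm1, Mybl2, the MuvB subunits and the NF-Y subunits, all were tested and 0 were called, with 3 positive and 15 negative differences and a median of −0.18.

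Mitotic kinesins also shared a promoter feature that did not enter the choice of genes. In RefSeq windows of 250 bases before to 50 bases after the start site, 32 of the 41 kinesins had an entry, and the CHR core was found on either strand in 7 of 8 mitotic genes, all but Kif18a. It was found in 1 of 11 transport genes, which was Kif1a at its inner start, whose use as a start was not tested. Among the other kinesins it was found in 5 of 13, against 17.9% of all 32851 promoters and 20.2% of genes. Within 25 bases of the start, the core was found in 6 of 8 mitotic, 0 of 11 transport and 3 of 13 other kinesins. This window was set after the positions were seen, and 2.65% of all promoters had the core in it. The 3 other kinesins were Kif18b, a mitotic gene outside the list of 9, Kif26b and the minus-end motor Kifc1. The CCAAT box was found in 4 of 8 mitotic, 3 of 11 transport and 8 of 13 other kinesins, against 37.4% of promoters and 41.1% of genes. The 100 bases before the start on GRCm38.p6 are shown for 3 mitotic kinesins with the CHR core just before the start, and for Kif26b, in which it begins at position −9. The capitals mark the same letters as before; in Kif11, Kif15 and Kif22 the CHR core begins at −19, −19 and −17.
Kif11, chr19:37376282-37376381, plus strand: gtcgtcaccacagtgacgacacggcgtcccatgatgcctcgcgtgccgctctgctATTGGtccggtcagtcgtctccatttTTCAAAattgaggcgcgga
Kif15, chr9:122950981-122951080, plus strand: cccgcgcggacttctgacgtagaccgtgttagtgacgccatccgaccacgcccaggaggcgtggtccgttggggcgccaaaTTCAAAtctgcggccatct
Kif22, chr7:127042421-127042520, minus strand: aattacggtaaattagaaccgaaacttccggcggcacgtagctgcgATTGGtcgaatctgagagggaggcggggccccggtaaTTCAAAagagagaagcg
Kif26b, chr1:178529025-178529124, plus strand: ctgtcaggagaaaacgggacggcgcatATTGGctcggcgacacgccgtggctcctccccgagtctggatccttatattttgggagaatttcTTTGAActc

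**Figure D5:**
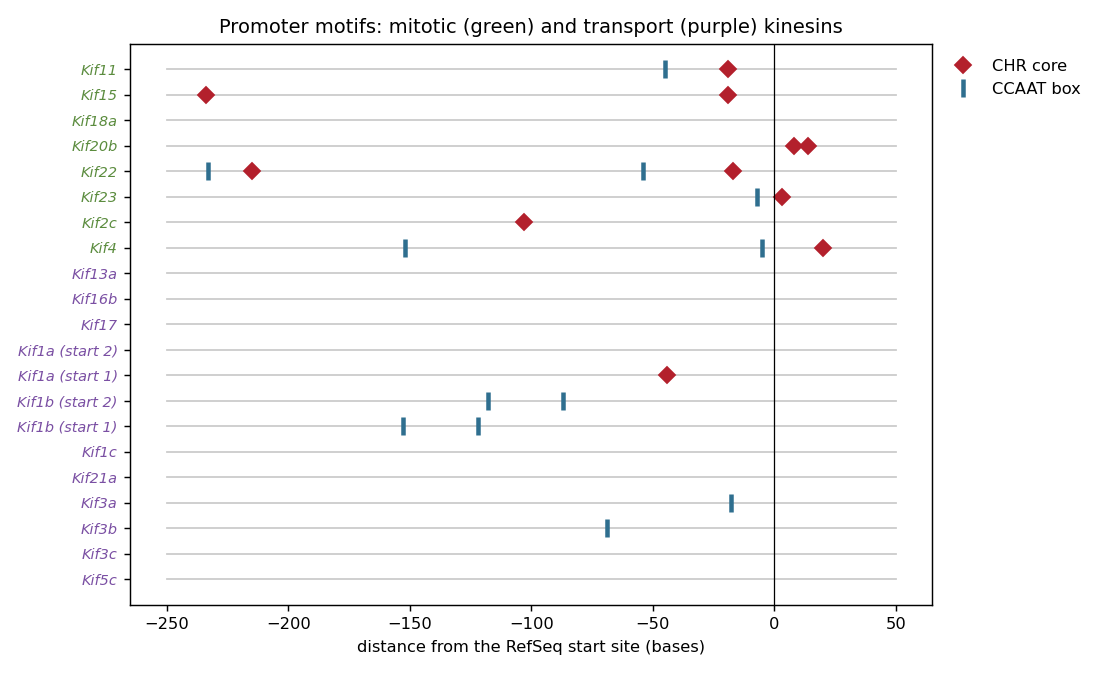
Positions of the CHR core (red) and the CCAAT box (blue) in the RefSeq promoters of the mitotic (green) and transport (purple) kinesins with an entry, in bases from the start site; genes with a pair of starts have them numbered by coordinate. The CHR core lies near the start in 6 of the 8 mitotic genes. Among the transport kinesins it appears once, at −44 of the inner Kif1a start, whose use was not tested.

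The other kinesins, apart from Kif26b, showed no separation of the groups. The 9 tested genes were the microtubule depolymerase Kif2a, the Hedgehog pathway regulator Kif7 and its relative Kif27, the ciliary kinesins Kif6, Kif9 and Kif24, Kif26a, and the mitotic genes Kif14 and Kif18b that were not in the list of 9. Their levels lay between 5.16 and 1177 normalized counts and their log2 differences between −0.28 and 0.47, with adjusted p-values from 0.671 to 0.998 in limma. Kif14, which acts in cytokinesis, was higher in TAM in the pairs numbered 1 and 2 and lower in the pair numbered 3, by 1.53, 0.41 and −1.91 on the log2 scale. Kif18b, which works at microtubule tips in mitosis, had pair differences of 1.85, −0.04 and −1.01. The low Kifc1 value is uncertain, because 72.1% of its transcript matched elsewhere, and so is that of Kif2a, with 19.8%.

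Adaptors and partners of the transport kinesins were followed in 20 genes, of which 17 were tested. Without the block 0 were called in limma, where 3 of the 17 had an unadjusted p under 0.05 as higher in TAM (6.67% of all tested genes did) and 0 as lower. Adding the block gave 1 gene called higher, against 1.00% of all tested genes. This gene was Ppfia3, which encodes liprin-alpha-3, a scaffold of the synaptic active zone whose family binds Kif1a. It had 9.88, 8.52 and 2.5 normalized counts in EtOH and 82.7, 72.0 and 30.9 in TAM, so that the groups were well apart and replicate 3 was again lowest. Its log2 difference was 3.02 (limma adjusted p = 0.131 without and 0.0360 with the block). The median over the list was 0.29, with 12 positive and 5 negative differences.

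Cargo of Kif1a was followed in 18 genes of synaptic and dense-core vesicles, but 7 of them passed the filter. Without the block 0 were called in limma, where 1 of the 7 had an unadjusted p under 0.05 as higher in TAM (6.67% of all tested genes did) and 0 as lower. Adding the block gave 1 call as higher, against 1.00% of all tested genes. The called gene was Rab3c, a small GTPase of synaptic vesicles carried by Kif1a. It had 121, 15.2 and 3.39 normalized counts in EtOH and 680, 546 and 179 in TAM, with a log2 difference of 4.31 (limma adjusted p = 0.203 without and 0.0469 with the block). Rab3c and Kif1a ranked the libraries alike in both groups, replicate 1 first and replicate 3 last. Rab3c was named because the block called it, and the block favours genes ordered alike by replicate number in both groups. The shared order is therefore a description only, and a link between the genes was not tested. The list median was 0.03, with 4 positive and 3 negative differences. Of the 21 genes of the dynein complex, the motor that walks toward the minus end, 19 were tested and 0 were called without or with the block, where 1 of the 19 had an unadjusted p under 0.05 as higher, against 6.67% of all tested genes, and 0 as lower, and the median was 0.07.

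Because Kif1a, Kif5a and Rab3c are best known from neurons, markers of other cell types are given beside them. Of 13 neuronal markers, 12 were in the table and 5 were tested. Their summed level was 127 to 238 normalized counts in EtOH libraries and 297 to 1247 in TAM libraries. Among the defining ones, Snap25, Elavl4 and Rbfox3 did not exceed 1.45, 0.92 and 0.82 normalized counts in any library, and no marker was at 0 in all 6. Of the 5 tested, 4 had a positive log2 difference, and the median was 1.60. An unadjusted p under 0.05 in limma was found for 3, all higher in TAM as Kif1a was (6.67% of all tested genes were). Uchl1, a deubiquitinase abundant in neurons, was called higher with the block, against 1.00% of all tested genes. It had 11.4, 59.1 and 49.5 normalized counts in EtOH and 80.2, 600 and 231 in TAM. Syn1, a protein of synaptic vesicles, had 45.1, 79.2 and 27.3 in EtOH and 131, 205 and 106 in TAM, an adjusted p = 0.0581 with the block in limma. The groups were also apart, with TAM higher, for Gap43 and for the low Nefm and Syt1, which did not exceed 15.9 and 7.5. Among all tested genes, 9.19% had groups apart in this direction, and Nefm and Syt1 were not themselves tested. Tubb3 and Stmn2 had overlapping groups, with log2 differences of 0.99 and −1.95. TAM replicate 2 had the highest neuronal sum, while TAM replicate 1 had the highest Kif1a, and the part of these genes in the Kif1a difference was not tested.

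Markers of neuroendocrine and Merkel cells, 9 of 10 in the table and 0 past the filter, summed to 18.0 to 27.45 normalized counts in EtOH and 40.7 to 83.7 in TAM, and Atoh1, Krt18 and Neurod1 were at 0. Schwann cell markers summed to 178 to 301 in EtOH and 66.9 to 169 in TAM, opposite in direction to Kif1a, with Cdh19 and Foxd3 at 0. The summed level of 6 melanocyte markers overlapped between groups, at 404 to 1010.5 in EtOH and 295 to 759 in TAM. That of 8 keratinocyte markers overlapped as well, at 81.1 to 92.2 and 65.7 to 126 with Krt1 at 0, although Trp63 was lower in every TAM library, at 2.5 to 7.15 against 24.9 to 25.8, and the low Krt5 was higher. Trp63 passed the filter only through its EtOH libraries, so its groups had to be apart. The sum of 8 macrophage markers overlapped too, at 212 to 553 and 387 to 555 with Adgre1 at 0, while Csf1r and Lyz2 were higher in every TAM library (9.19% of all tested genes were). Of the 5 tested macrophage markers, 2 had an unadjusted p under 0.05 in limma as higher (6.67% of all tested genes did) and 0 were called. Of the 6 endothelial markers, Cldn5 was at 0 and Kdr, a receptor for VEGF, was called lower with the block, against 0.615% of all tested genes. Kdr had 205, 68.7 and 116 normalized counts in EtOH and 4.84, 7.53 and 14.0 in TAM. Kdr also passed the filter only through its EtOH libraries, so its groups had to be apart. None of the 10 fibroblast markers was called without or with the block, and their median log2 difference was −0.71, with 3 positive and 7 negative. Col1a1, Col1a2, Col3a1, Dcn and Lum were nevertheless lower in every TAM library, with log2 differences of −2.37 for Dcn and −2.38 for Lum. Thy1 was higher in every TAM library, and the groups overlapped for Pdgfra, Pdgfrb, Vim and Fn1. Among all tested genes, 11.4% had groups apart as lower and 9.19% as higher. An unadjusted p under 0.05 in limma was found for 2 of the 10 as lower and 1 as higher, against 6.70% and 6.67% of all tested genes. The part of other cell types in the kinesin values was not tested.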

How the data were processed

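The authors aligned reads with TopHat to mm9, assigned them to genes by htseq-count and tested them with edgeR. They deposited 1 signal for every gene in every library, a normalized count. Its scaling is not given in the sources used here, and most values are fractional, so no count test was run. The members and gene lists were chosen with earlier results of these data known.

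Libraries were grouped by their labels. The model was fitted on log2(value + 1) with a mean trend in limma 3.58.1 (R 4.3.3), over the 11877 genes that reached 1 c.p.m., or 16.2 normalized counts, in 3 or more libraries. All libraries shared this factor. Log2 differences are on that scale and understate changes of low genes. Calls needed an adjusted p (Benjamini-Hochberg, over all genes tested) under 0.05. Read totals are unknown, so precision rests on 3 libraries against 3 and no counting intervals were computed. Simulated data with known changes were used to test the script.

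The labels give replicate numbers but no pairing. Deviations from the group means correlated between same-numbered libraries, with r of 0.24, 0.29 and 0.42, and between −0.31 and 0.04 otherwise, so results are given with the number as a block where this changed a call.

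Named in full were Kif1a, Kif1b, Kif1c, the 9 mitotic kinesins, the 5 tested transport kinesins of largest absolute log2 difference, and every called member. From the lists of kinesin partners, Kif1a cargo, mitotic partners, mitotic regulators, the dynein complex and cell type markers, called genes were named, with Mki67, Top2a and Cenpe. Further uncalled markers, among them Syn1, Gap43, Trp63, Csf1r, Lyz2, Dcn, Lum and Thy1, were named outside this rule, after their values were seen. No entry was found for 2 marker symbols. Levels per kilobase use exon lengths of the mm9 annotation. Transcripts were matched to the mm9 genome with BLAST 2.17.0 at 95% identity over at least 100 bases. Promoter sequences are from RefSeq (GRCm38.p6). Summaries used Python 3.11.15 with pandas 2.3.3, and plots used matplotlib 3.10.9. Alternatives were other scalings, filters and pseudocounts, the replicate block, and leaving out each library.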

Additional observations from a re-analysis of the deposited data

How the results depend on the processing

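Without the block, 0 kinesins were called in either direction, also with any 1 library left out (0 to 0 for both counts), except that scaling to library sums called 1 higher, Kif26b. That scaling moved the median of all genes by 0.11 on the log2 scale. With the replicate block 2 were called higher, Kif1a and Kif26b. The combinations of the block with other settings were chosen after seeing the data. Of these, 2 were called with median-ratio scaling, scaling to library sums, a pseudocount of 10 or 0.1, no filter on low values, or without the pair numbered 3. Without the pair numbered 1 the block called 1 higher, Kif26b, and 1 lower, Kif21b, and without the pair numbered 2 it called 3 higher, Kif1a, Kif21a and Kif26b. For Kif21b and Kif21a the pair left out was the only one in the other direction. The cause of these changes in the calls was not tested. The block changed no other call among the kinesins; outside them it added the calls of Ppfia3, Rab3c, Uchl1 and Kdr among the listed genes.

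Leaving out 1 library gave log2 differences of Kif1a from 3.69 to 5.75, mitotic medians from −0.45 to 0.45, transport medians from 0.15 to 0.38 and differences between these medians from −0.83 to 0.30. Kif1a kept its direction under every setting that gave it a value. It had none under a minimum of 10 in every library, nor with the block without the pair numbered 1, because it did not pass the filter. Values of a few normalized counts, such as those of Kif1a in EtOH replicate 3, rest on few reads, and 3 libraries a group limit what could be called.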
